A study of Mus musculus with 9 samples.

Results

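Elastic fibres are built from an elastin core and a sheath of microfibrils, and 10 genes of this assembly were followed here in cultured mouse pancreatic stellate cells. They were taken by name from the table of read counts: elastin (Eln), the fibrillins Fbn1 and Fbn2, the microfibril-associated proteins Mfap4 and Mfap5, and the fibulins Fbln1, Fbln2, Efemp1, Efemp2 and Fbln5. All 10 of the 10 were found among the 49315 gene identifiers counted, and all 10 passed the filter on low counts that left 18211 genes for testing.

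The cells were stellate cells, the matrix-forming mesenchymal cells of the pancreas, from C57BL6 mice. They had grown out spontaneously as an immortal line and were used as a polyclonal population after lentiviral delivery of Cas9 with 1 guide RNA and puromycin selection, so every group carried Cas9 and a guide and no uninfected cells enter the comparisons. HIF1a-ko hypoxia denotes cells with the guide HIF1a-sg2, against Hif1a, the gene of the HIF-1 subunit that oxygen keeps low, kept for 48 h at 0.5% oxygen. R26 hypoxia denotes cells with the control guide R26-sg1 under the same 48 h at 0.5% oxygen, and R26 normoxia the same control cells after 48 h at 20% oxygen. Each group has 3 poly-A RNA libraries. A separate culture behind each library is not stated, so the p-values below speak only for the spread between these libraries, which may be technical. None of the 9 libraries is of the Hif1a guide at 20% oxygen, so its effect at that oxygen level cannot be read here. The comparison of R26 hypoxia with R26 normoxia asks what low oxygen does in control cells, and that of HIF1a-ko hypoxia with R26 hypoxia asks what the Hif1a guide does in low oxygen. The comparison of HIF1a-ko hypoxia with R26 normoxia gives what remains different when both are combined. Each arm rests on 1 guide. Loss of Hif1a, other effects of the guide HIF1a-sg2 and differences between the selected cell populations therefore cannot be told apart.

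Tropoelastin, the soluble product of Eln, is secreted, gathered on a scaffold of fibrillin microfibrils and cross-linked by lysyl oxidases into insoluble elastin. Fibulins bring tropoelastin, the cross-linking enzymes and the microfibrils together, and some of them are also found in basement membranes and other matrices. Microfibrils in addition hold latent TGF-beta through its binding proteins, and activated stellate cells are the main source of the fibrous matrix of the diseased pancreas.

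Hif1a itself, the target of the guide (chromosome 12, 73901375 to 73947530, plus strand; all gene coordinates are GRCm38), had 123.3, 116.9 and 125.0 CPM (counts scaled to a common library size with TMM factors) in HIF1a-ko hypoxia, against 177.8, 168.7 and 207.1 CPM in R26 hypoxia and 194.0, 192.4 and 224.8 CPM in R26 normoxia. All 3 HIF1a-ko libraries were below all 6 R26 libraries. A Cas9 cut need not lower a transcript, so this level is a weak check of the labels. The libraries held 43837809 to 107840223 counts in total. In every group 1 of them was deeper, with at least 88451200 counts: HIF1a-ko hypoxia 1, R26 hypoxia 3 and R26 normoxia 3. The other 6 are called shallower, a division made from the data. The deeper libraries stood apart in low-level transcripts of other cell types. The summed level of 3 adipocyte markers was 0.0567 to 0.124 CPM in deeper and 16.1 to 51.6 CPM in shallower libraries, that of 7 leukocyte markers 9.54 to 18.7 CPM in deeper and 35.9 to 58.2 CPM in shallower libraries, and that of 6 epithelial markers 14.1 to 46.5 CPM in deeper and 56.9 to 106.6 CPM in shallower libraries. The 6 endothelial markers summed to 9.31 to 13.8 CPM in deeper and 14.5 to 23 CPM in shallower libraries. The 11 stellate cell or fibroblast markers summed to 13480.9 to 13943.2 CPM in HIF1a-ko hypoxia, 19780.7 to 21321.8 CPM in R26 hypoxia and 17545.6 to 19255.2 CPM in R26 normoxia. Most of this sum was Col1a1, Col1a2 and Vim, so it says little of the other markers in the list. Des, the stellate cell marker desmin, was low at 0.246 to 3.73 CPM over the 9 libraries, and so was Lum at 0.236 to 4.04 CPM. The pancreatic markers Amy2a5, Ins1 and Ins2 were counted at 0 in all 9.

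Levels between genes were compared as CPM per kilobase of exon. By this measure the 10 genes spanned more than 3 orders of magnitude, and 2 fibulins dominated. Fbln2 stood at 825.4 ± 30 in HIF1a-ko hypoxia, 727.6 ± 39.6 in R26 hypoxia and 499.0 ± 24.1 in R26 normoxia (CPM per kilobase, SD, n = 3 each). Efemp1 stood at 247.4 ± 11 in HIF1a-ko hypoxia, 521.3 ± 23 in R26 hypoxia and 526.9 ± 10.2 in R26 normoxia. Among 18153 genes ranked by this level, Fbln2 took place 21 in HIF1a-ko hypoxia, place 28 in R26 hypoxia and place 53 in R26 normoxia, and Efemp1 took place 127 in HIF1a-ko hypoxia and place 49 in both R26 hypoxia and R26 normoxia. Together they made up most of the summed level of the 10 genes, and their balance differed between groups: Fbln2 held 70% of the sum in HIF1a-ko hypoxia, 52.8% in R26 hypoxia and 44% in R26 normoxia, while Efemp1 held 21% in HIF1a-ko hypoxia, 37.8% in R26 hypoxia and 46.5% in R26 normoxia.

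The order of the other genes was nearly the same in the 3 groups. Efemp2 came next, at 65.1 ± 4.7 in HIF1a-ko hypoxia, 91.7 ± 7.87 in R26 hypoxia and 75.4 ± 5.96 in R26 normoxia. Fbln5 followed at 32.4 ± 1.7 in HIF1a-ko hypoxia, 24.4 ± 2.01 in R26 hypoxia and 20.5 ± 1.64 in R26 normoxia, and then Fbn1 at 5.52 ± 0.15 in HIF1a-ko hypoxia, 9.99 ± 0.323 in R26 hypoxia and 9.25 ± 0.429 in R26 normoxia. Mfap5 and then Fbn2 followed, at 1.3 to 2.41 and 0.646 to 0.786 on group average. Neighbours down to Fbn2 did not overlap between libraries, apart from Efemp1 and Fbln2 in R26 normoxia. Eln, Fbln1 and Mfap4 were the lowest, at group means of 0.111 to 0.442, and overlapped one another in every group. In HIF1a-ko hypoxia the libraries of Fbn2 overlapped those of Fbln1, its neighbour in the order there.

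**Figure D1:**
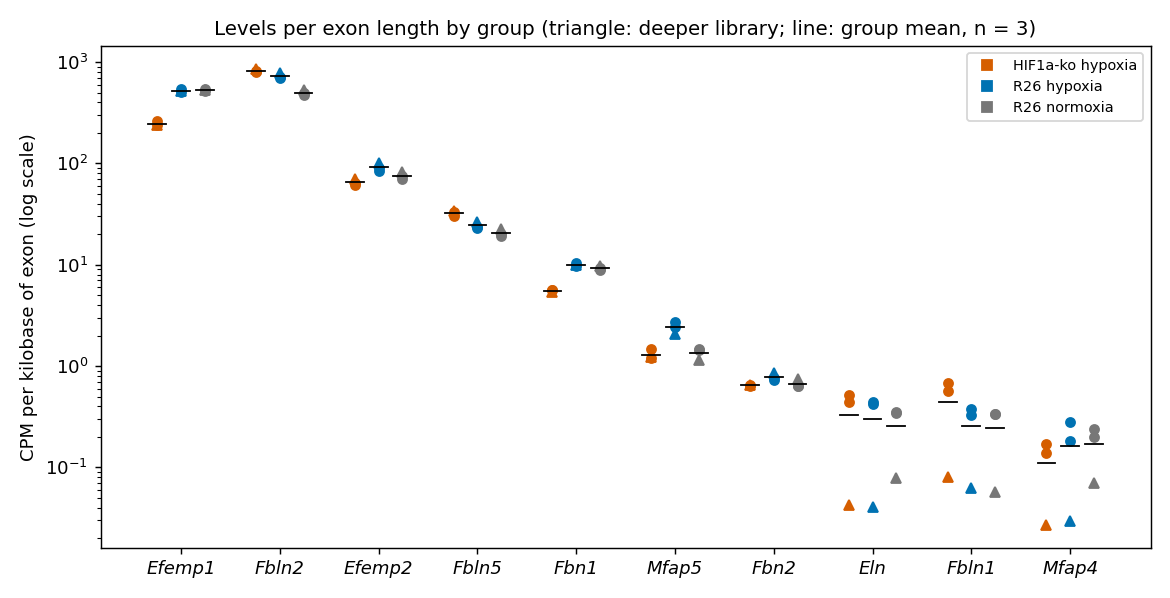
Level of each gene in every library as CPM per kilobase of exon on a log scale, by group, with the group mean as a line (n = 3) and the deeper library of each group as a triangle. Fbln2 and Efemp1 lie above all others, at 825.4 and 247.4 in HIF1a-ko hypoxia, and the 3 lowest genes are split by depth.

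In the count table, elastin itself was low and differed more between libraries of a group than between groups. Eln (ENSMUSG00000029675, chromosome 5, 134702593 to 134747323, minus strand) had 0.344, 3.56 and 4.15 CPM in HIF1a-ko hypoxia, 3.59, 3.4 and 0.331 CPM in R26 hypoxia and 2.78, 2.83 and 0.63 CPM in R26 normoxia. The low value of each group was its deeper library, and the counts themselves were lower there, at 33, 35 and 56, against 122 to 204 in the shallower libraries, so the 3 groups overlapped. The log2 fold change was 0.23 ± 0.99 (SE) for R26 hypoxia against R26 normoxia, with a 95% interval of -2.02 to 2.47, and no difference was detectable (edgeR quasi-likelihood test with Benjamini-Hochberg adjustment, adjusted p = 0.912; 0.925 for HIF1a-ko against R26 hypoxia and 0.813 against R26 normoxia). With depth class as a term the 9 libraries gave 0.01 ± 0.24 for R26 hypoxia against normoxia, 0.13 ± 0.22 for HIF1a-ko against R26 hypoxia and 0.14 ± 0.23 for HIF1a-ko hypoxia against R26 normoxia, none of them called. Among the 6 shallower libraries alone, Eln was higher in HIF1a-ko hypoxia than in R26 normoxia, by 0.48 ± 0.16 on the log2 scale (edgeR, adjusted p = 0.0229, in a range of 0.0229 to 0.975 over the alternatives).

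Fbln1 (ENSMUSG00000006369, chromosome 15, 85205949 to 85286535, plus strand), a fibulin of elastic fibres and basement membranes, behaved in the same way. It had 0.354, 2.48 and 2.95 CPM in HIF1a-ko hypoxia, 1.65, 1.45 and 0.274 CPM in R26 hypoxia and 1.47, 1.46 and 0.248 CPM in R26 normoxia. Each group's deeper library was again the low one, and the groups overlapped over all 9 libraries. With group as the only term the difference in HIF1a-ko hypoxia was 0.79 ± 0.90 against R26 hypoxia (edgeR, adjusted p = 0.525) and 0.88 ± 0.90 against R26 normoxia (adjusted p = 0.492). With a term for depth class the same 9 libraries gave calls, 0.70 ± 0.18 against R26 hypoxia (edgeR, adjusted p = 0.00491) and 0.80 ± 0.19 against R26 normoxia (adjusted p = 0.00261). In the shallower libraries alone Fbln1 was also higher in HIF1a-ko hypoxia, by 0.81 ± 0.20 against R26 hypoxia (edgeR, adjusted p = 0.00345) and by 0.91 ± 0.20 against R26 normoxia (adjusted p = 0.00203). Over the alternatives these adjusted p-values ran from 0.00345 to 0.842 against R26 hypoxia and from 0.00203 to 0.801 against R26 normoxia. In the deeper libraries, 1 per group, the log2 ratio of HIF1a-ko hypoxia was 0.37 to R26 hypoxia and 0.52 to R26 normoxia.

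Mfap4 (ENSMUSG00000042436, chromosome 11, 61485431 to 61488900, plus strand), a fibrinogen-like protein that binds elastin and microfibrils, had only 5 to 27 counts a library. Its level was 0.0521, 0.265 and 0.326 CPM in HIF1a-ko hypoxia, 0.348, 0.537 and 0.0567 CPM in R26 hypoxia and 0.384, 0.465 and 0.135 CPM in R26 normoxia. The 3 deeper libraries were the 3 lowest, and no difference between groups was detectable at this depth (edgeR, adjusted p = 0.658 for HIF1a-ko against R26 hypoxia, 0.626 for HIF1a-ko hypoxia against R26 normoxia and 0.969 for R26 hypoxia against normoxia).

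The mean of the shallower libraries over the deeper one was 11.2 in HIF1a-ko hypoxia, 10.6 in R26 hypoxia and 4.45 in R26 normoxia for Eln. It was 7.67 in HIF1a-ko hypoxia, 5.66 in R26 hypoxia and 5.92 in R26 normoxia for Fbln1, and 5.67 in HIF1a-ko hypoxia, 7.8 in R26 hypoxia and 3.14 in R26 normoxia for Mfap4. For the other 7 genes this ratio lay between 0.86 and 1.27. Of all 18211 genes tested, 526 (2.89%) had every shallower library of each group at least 3-fold above its deeper one, and Eln and Fbln1 were among them. The adipocyte, leukocyte and epithelial marker sums given above moved the same way, and so did the endothelial sum. Their part in the levels of these 3 genes was not tested.

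**Figure D2:**
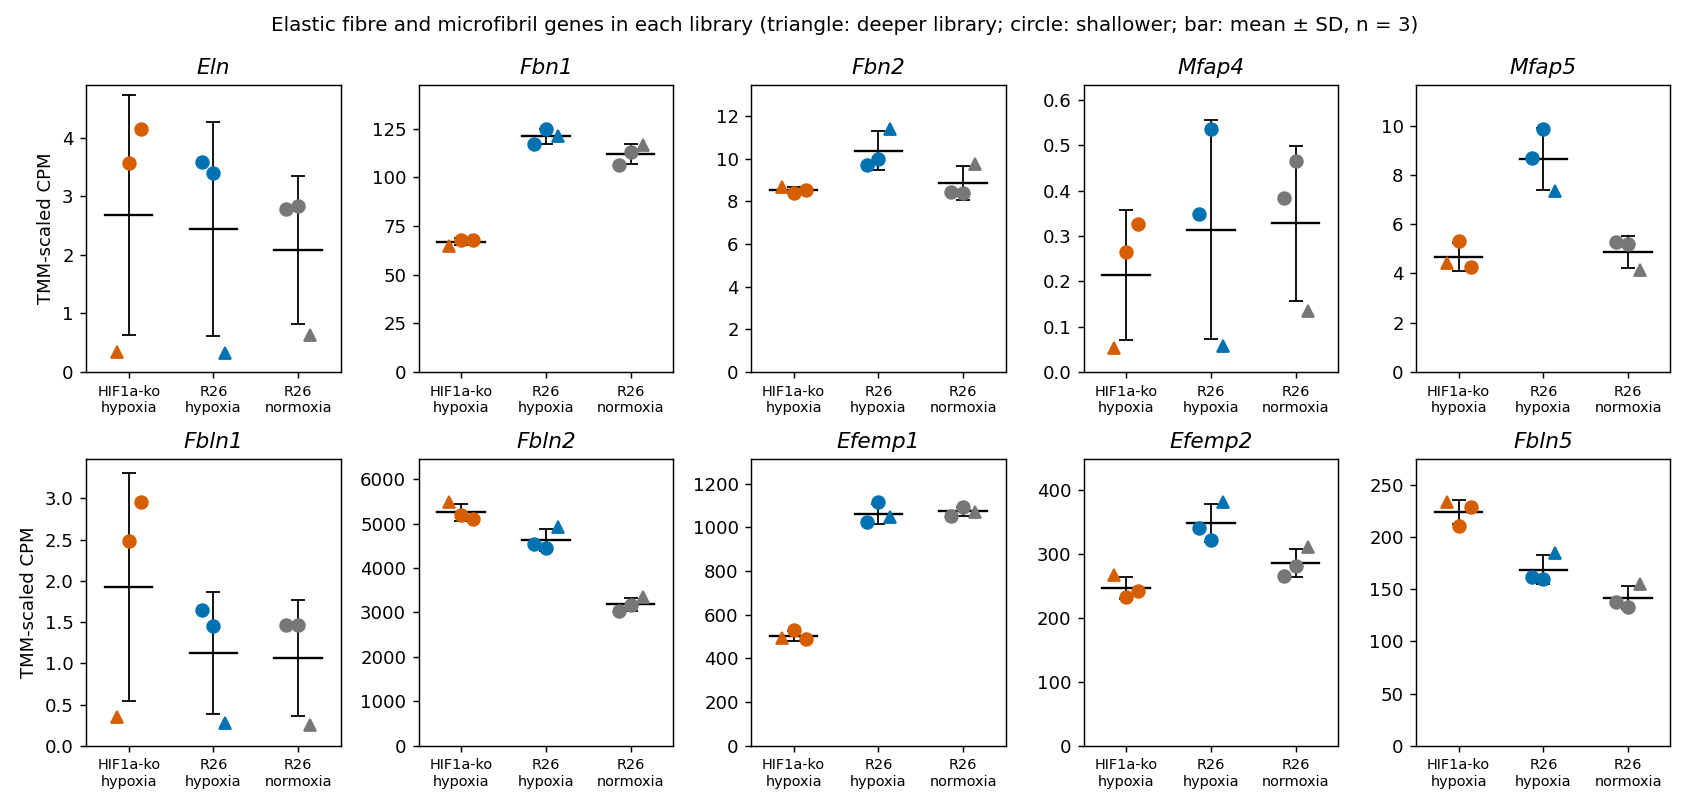
TMM-scaled CPM of each gene in each of the 9 libraries, with HIF1a-ko hypoxia, R26 hypoxia and R26 normoxia from left to right, bars for mean ± SD (n = 3) and triangles for deeper libraries. Efemp1 and Fbn1 are low in the 3 HIF1a-ko libraries, at 490.7 to 529.9 and 64.8 to 68 CPM, and Eln, Fbln1 and Mfap4 are low in the deeper libraries.

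In control cells, low oxygen raised 4 of the 10 genes and lowered none: Mfap5, Fbln2, Efemp2 and Fbln5. Of all genes tested, 25.2% were called in this comparison (12.8% higher, 12.4% lower). The groups did not overlap for 5 members, all higher in hypoxia, against 38.4% of all genes (19.3% higher). The median log2 fold change of the 10 was 0.23, against -0.01 over all genes. With the replicate number as a block 6 of the 10 genes were called higher, where 7259 genes were called overall in place of 4591. The block separates the deeper library, number 3 of both groups, from the others, and with depth class as the term 5 of the 10 were called higher and 6959 genes overall.

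In the Hif1a-guide cells under the same low oxygen, 5 of the 10 were lower and 2 higher than in control cells. Fbn1, Fbn2, Mfap5, Efemp1 and Efemp2 fell and Fbln2 and Fbln5 rose. Of all genes, 45.8% were called here (22% higher, 23.8% lower). The same 7 genes were those whose groups did not overlap, against 54.6% of all genes (26.4% higher). The members' median was -0.39, against -0.02 over all genes. Since the libraries are bulk, fewer cells of a type and less RNA per cell cannot be told apart in any of these differences. Marker sums also differed between these groups. The 7 smooth muscle or pericyte markers summed to 82.4 to 98.9 CPM in HIF1a-ko hypoxia and 139.4 to 144.2 CPM in R26 hypoxia, and the 5 mesothelial markers to 50.2 to 59.2 CPM in HIF1a-ko hypoxia, 115.8 to 143.9 CPM in R26 hypoxia and 62 to 76.8 CPM in R26 normoxia, most of it Wt1 and Krt19. The 8 acinar or islet markers, with Amy2a5, Ins1 and Ins2 at 0, summed to 4.49 to 7.06 CPM in HIF1a-ko hypoxia and 10.7 to 12.9 CPM in R26 hypoxia. Single genes carried most of these sums. Smtn, of the smooth muscle or pericyte list, averaged 53.6 CPM in HIF1a-ko and 87.8 CPM in R26 hypoxia. Cela1, of the acinar or islet list, averaged 4.61 and 10.7 CPM. The mesothelial Upk3b went the other way, at a log2 fold change of 1.15. The fibroblast sum given above was lower as well, but of its 11 genes 5 were called lower in HIF1a-ko against R26 hypoxia, 1 higher and 5 neither. On the log2 scale the lower ones were Pdgfra (-1.70), a growth factor receptor, the collagen genes Col1a2 (-0.92), Col1a1 (-0.69) and Col3a1 (-0.65), and Vim (-0.28), the higher one was Acta2 (0.54), smooth muscle actin, and Thy1 (0.07), Dcn (-0.03), Pdgfrb (-0.10), Lum (-0.43) and Des (0.56) were not called. The endothelial sum was not lower, at 13.8 to 23 CPM in HIF1a-ko and 9.31 to 16.8 CPM in R26 hypoxia, with overlap. In that list Kdr (1.17) and Egfl7 (0.96) were called higher and Vwf (-0.71) lower. The part of these sums in the changes of the 10 genes was not tested.

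Against R26 normoxia, HIF1a-ko hypoxia had 2 genes lower, Fbn1 and Efemp1, and 2 higher, Fbln2 and Fbln5, where 41.4% of all genes were called (19.5% higher, 21.9% lower). The same 4 had groups that did not overlap, against 53.2% of all genes (25.5% higher). The members' median there was -0.06, against -0.01. With the 6 shallower libraries only, the members called were 5 higher and 0 lower for R26 hypoxia against normoxia, 3 and 4 for HIF1a-ko against R26 hypoxia, and 4 and 3 for HIF1a-ko hypoxia against R26 normoxia. The calls over all genes in these fits were also more, at 5453, 9323 and 8377 in the order of these comparisons, against 4591, 8334 and 7548 with all libraries. The 3 comparisons share libraries in pairs, so their values are set side by side below and are not independent.

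**Figure D3:**
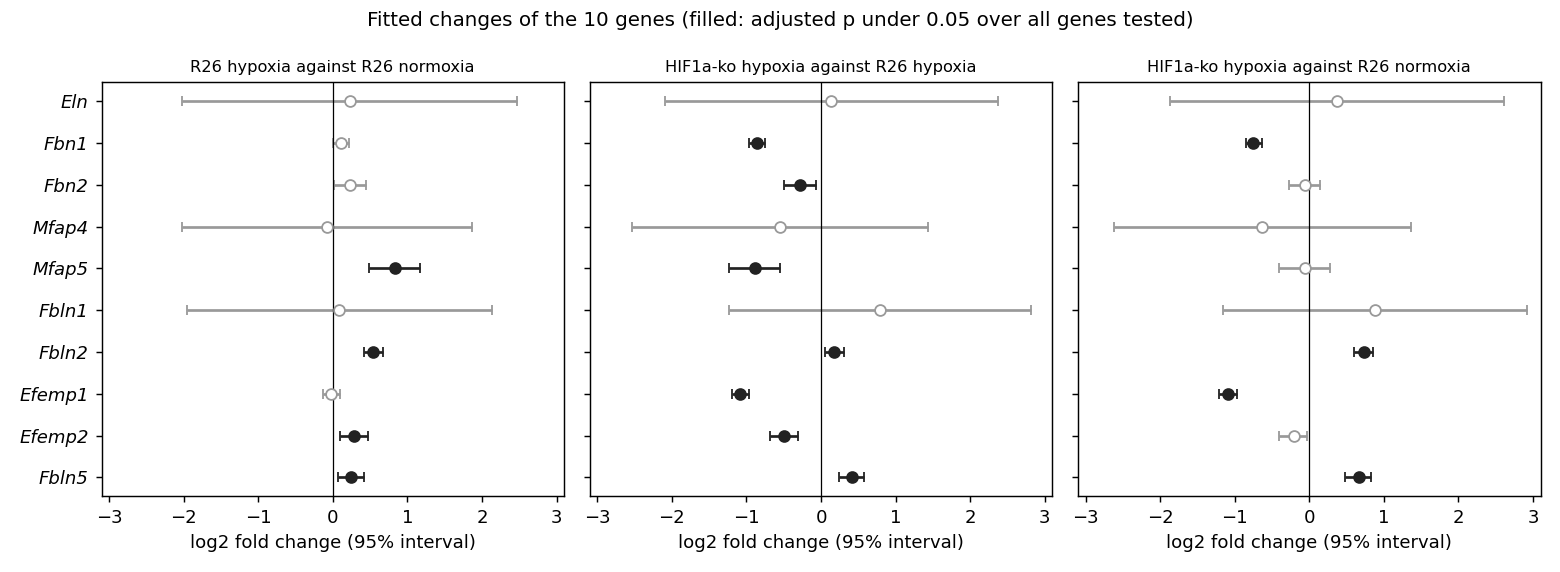
Log2 fold change with its 95% interval for each gene in the 3 comparisons, filled where the adjusted p over all genes tested was under 0.05. Efemp1 and Fbn1 lie at -1.08 and -0.86 in HIF1a-ko hypoxia against R26 hypoxia, and the intervals of Eln, Mfap4 and Fbln1 are the widest.

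Fbn1 (ENSMUSG00000027204, chromosome 2, 125300594 to 125507993, minus strand) encodes fibrillin-1, the main structural protein of microfibrils in adult tissue, whose mutation causes Marfan syndrome. It had 64.8, 68 and 68 CPM in HIF1a-ko hypoxia, 117.1, 125.0 and 121.3 CPM in R26 hypoxia and 106.5, 113.2 and 116.8 CPM in R26 normoxia. All 3 HIF1a-ko libraries were below all 6 R26 libraries, and the R26 hypoxia libraries were only just above those of normoxia. Fbn1 was 1.81-fold lower in HIF1a-ko than in R26 hypoxia, a log2 fold change of -0.86 ± 0.05 (SE; edgeR, adjusted p = 8.01e-07), and 1.68-fold lower than in R26 normoxia (-0.75 ± 0.05, adjusted p = 2.56e-06). Between R26 hypoxia and normoxia the difference was 0.11 ± 0.05 with an adjusted p of 0.122, and it was called with the replicate block (0.13 ± 0.04, edgeR, adjusted p = 0.0209) and among the shallower libraries (adjusted p = 0.0362). Its adjusted p ranged from 0.0209 to 0.365 over the alternatives. Exons of Fbn1 overlap those of Gm9913 on the other strand over 2442 bp, and 19.6% of its exon sequence, in windows of 75 bases, is shared with that gene. Whether the counting used strand is not given in the sources used here, so reads of that stretch may belong to either. Eln, Fbn2, Efemp2 and Mfap4 overlap exons of a gene on the other strand over 89 to 267 bp and share 0.419% to 2.39% of their windows of 75 bases, and the remaining 5 genes share 0.

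Fbn2 (ENSMUSG00000024598, chromosome 18, minus strand) encodes fibrillin-2, a microfibril protein known mostly from development. It had 8.67, 8.39 and 8.55 CPM in HIF1a-ko hypoxia, 9.72, 10 and 11.4 CPM in R26 hypoxia and 8.43, 8.38 and 9.77 CPM in R26 normoxia. HIF1a-ko and R26 hypoxia did not overlap, while HIF1a-ko hypoxia lay within the range of R26 normoxia. The gene was 1.22-fold lower in HIF1a-ko than in R26 hypoxia (-0.28 ± 0.09, edgeR, adjusted p = 0.0317), a small difference that lost its call without R26 hypoxia 2 (adjusted p = 0.0507), R26 hypoxia 3 (0.113) or HIF1a-ko hypoxia 1, 2 or 3 (0.0682, 0.0905 and 0.0924), and with the shallower libraries only (0.0853), library totals only (0.0942) or no filter on low counts (0.107). Over the alternatives that adjusted p ran from 0.00481 to 0.113. Against R26 normoxia the HIF1a-ko difference was -0.06 ± 0.09 with a 95% interval of -0.27 to 0.15. Between R26 hypoxia and normoxia it was 0.23 ± 0.09 (edgeR, adjusted p = 0.109), called with the replicate block (0.25 ± 0.07, adjusted p = 0.0179) and within 0.0179 to 0.309 over the alternatives, among which a term for depth class (0.23 ± 0.07, adjusted p = 0.0271) and leaving out R26 normoxia 3 also gave a call.

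Mfap5 (ENSMUSG00000030116, chromosome 6, 122505845 to 122529290, plus strand) encodes MAGP-2, a small glycoprotein that binds fibrillin microfibrils. It had 4.41, 5.32 and 4.25 CPM in HIF1a-ko hypoxia, 8.7, 9.87 and 7.36 CPM in R26 hypoxia and 5.29, 5.2 and 4.12 CPM in R26 normoxia. The 3 R26 hypoxia libraries were the 3 highest, and the HIF1a-ko and normoxia libraries overlapped. Mfap5 was 1.78-fold higher in R26 hypoxia than in normoxia (log2 0.83 ± 0.15, edgeR, adjusted p = 0.00373) and 1.85-fold lower in HIF1a-ko than in R26 hypoxia (-0.89 ± 0.15, adjusted p = 0.000997). Both calls held under all 17 alternatives, with log2 fold changes of 0.72 to 0.94 for the rise and of -0.79 or below for the fall. HIF1a-ko hypoxia differed from R26 normoxia by -0.06 ± 0.15, with a 95% interval of -0.40 to 0.28 (adjusted p = 0.799).

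Fbln2 (ENSMUSG00000064080, chromosome 6, 91212455 to 91272540, plus strand) encodes fibulin-2, a large fibulin at the surface of elastic fibres and in basement membranes. It had 5473.3, 5188.4 and 5111.0 CPM in HIF1a-ko hypoxia, 4536.9, 4446.1 and 4921.8 CPM in R26 hypoxia and 3033.5, 3162.6 and 3339.1 CPM in R26 normoxia. The 3 groups formed 3 steps that did not overlap. Low oxygen raised Fbln2 1.46-fold in control cells (0.54 ± 0.06, edgeR, adjusted p = 0.000157), a call held under all 17 alternatives (0.50 to 0.59), and HIF1a-ko hypoxia was 1.65-fold above R26 normoxia (0.73 ± 0.06, adjusted p = 8.05e-06; 0.69 to 0.79). The further step in HIF1a-ko over R26 hypoxia was 1.13-fold (0.18 ± 0.06, adjusted p = 0.0236). It lost its call without R26 hypoxia 1 (adjusted p = 0.0773), R26 hypoxia 2 (0.0965), HIF1a-ko hypoxia 1 (0.0644) or HIF1a-ko hypoxia 2 (0.0504), and with no filter on low counts (0.2). Over the alternatives its adjusted p ran from 0.000839 to 0.2.

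Efemp1 (ENSMUSG00000020467, chromosome 11, 28853204 to 28926743, plus strand) encodes fibulin-3, which in mice supports the elastic fibres of fascia. It had 491.2, 529.9 and 490.7 CPM in HIF1a-ko hypoxia, 1022.6, 1113.9 and 1049.5 CPM in R26 hypoxia and 1052.9, 1094.5 and 1072.2 CPM in R26 normoxia. All 3 HIF1a-ko libraries were far below all 6 R26 libraries, while the R26 libraries overlapped at both oxygen levels. Efemp1 was 2.11-fold lower in HIF1a-ko than in R26 hypoxia (-1.08 ± 0.05, edgeR, adjusted p = 3.58e-07) and 2.13-fold lower than in R26 normoxia (-1.09 ± 0.05, adjusted p = 4.74e-07), the largest change among the 7 genes not split by depth. In control cells the oxygen level made a difference of -0.02 ± 0.05, with a 95% interval of -0.13 to 0.10 (adjusted p = 0.882). In the deeper libraries alone the log2 ratio of HIF1a-ko to R26 hypoxia was -1.10, and in the shallower libraries -1.06 ± 0.06.

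Efemp2 (ENSMUSG00000024909, chromosome 19, 5473954 to 5482517, plus strand) encodes fibulin-4, which binds lysyl oxidase and without which mice form no intact elastic fibres. It had 266.4, 231.8 and 241.5 CPM in HIF1a-ko hypoxia, 340.4, 322.0 and 380.3 CPM in R26 hypoxia and 265.4, 281.7 and 310.0 CPM in R26 normoxia. The R26 hypoxia libraries were the highest, and HIF1a-ko and normoxia overlapped in 1 library each. Efemp2 was 1.41-fold lower in HIF1a-ko than in R26 hypoxia (-0.50 ± 0.08, edgeR, adjusted p = 0.000935). It was 1.22-fold higher in R26 hypoxia than in normoxia (0.28 ± 0.08, adjusted p = 0.0341), a call lost without R26 normoxia 1 (adjusted p = 0.126), R26 normoxia 2 (0.1), R26 hypoxia 1 (0.0644) or R26 hypoxia 3 (0.092). Over the alternatives that adjusted p ran from 0.000151 to 0.126. Against R26 normoxia, HIF1a-ko hypoxia was at -0.21 ± 0.08 (adjusted p = 0.0685), called in the shallower libraries (-0.19 ± 0.05, adjusted p = 0.00929), with a term for depth class (0.000764) and without R26 hypoxia 3. Over the alternatives its adjusted p ran from 0.000764 to 0.305.

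Fbln5 (ENSMUSG00000021186, chromosome 12, 101746565 to 101819055, minus strand) encodes fibulin-5, which binds tropoelastin and cell integrins and is needed for elastic fibres in mouse skin, lung and vessels. It had 233.0, 210.8 and 228.3 CPM in HIF1a-ko hypoxia, 161.4, 159.6 and 184.5 CPM in R26 hypoxia and 138.1, 132.9 and 154.6 CPM in R26 normoxia. As for Fbln2, the 3 groups did not overlap and HIF1a-ko hypoxia was highest. Fbln5 was 1.33-fold higher in HIF1a-ko than in R26 hypoxia (0.41 ± 0.08, edgeR, adjusted p = 0.00179) and 1.58-fold higher than in R26 normoxia (0.66 ± 0.08, adjusted p = 0.000116). The 1.19-fold rise in R26 hypoxia over normoxia (0.25 ± 0.08, adjusted p = 0.0426) lost its call without R26 normoxia 1 (adjusted p = 0.131), R26 normoxia 2 (0.145), R26 hypoxia 1 (0.0559), R26 hypoxia 3 (0.113) or HIF1a-ko hypoxia 3 (0.0553), and with library totals only (0.0644) or no filter on low counts (0.0525). Over the alternatives its adjusted p ran from 0.000248 to 0.145. Without R26 normoxia 1 or 2, or R26 hypoxia 1 or 3, the number of members called higher in R26 hypoxia against normoxia was 2, and without R26 hypoxia 1 or 2, or HIF1a-ko hypoxia 1 or 2, that in HIF1a-ko against R26 hypoxia was 1. Fewer genes were called overall in these fits as well, 3287 to 4111 against 4591 in the first comparison and 7341 to 7709 against 8334 in the second.

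Across the 9 libraries, the log2 CPM of Fbn1 and Efemp1 ran together (Pearson r = 0.99), as did Fbln2 and Fbln5 (0.90) and Fbn2 and Efemp2 (0.91), while Efemp1 and Fbln5 ran opposite (-0.90). Eln followed Fbln1 (0.95) and Mfap4 (0.94), the genes split by depth. These values describe 9 libraries in 3 groups, which share the group differences and the depth split. Among other genes with a mean log2 CPM of at least 3, those most like Fbln2 by the same measure were Man2a1 and Thsd7a (0.994 each) and Slc25a30 (0.992), and those most like Efemp1 were B3gnt9 (0.998), Plce1 (0.997) and Lztr1 (0.997). Among the genes most like Efemp2 were Ttll12 (0.989) and Ggcx (0.987), and Fbln5 was most like Pck2 (0.994), Rad21 (0.993) and Cep192 (0.992). For the 3 genes split by depth, the genes most alike were named after their values were seen. Those most like Eln were the adipocyte lipid carrier Fabp4 (0.978), the apolipoprotein Apoe (0.966) and the antigen-presentation gene Cd74 (0.963). Mfap4 was most like Cd74 (0.952), Fabp4 (0.937) and Ccdc32 (0.936). For Fbln1 they were other genes, Med21 (0.983), Hnrnpul2 (0.960) and Rps6-ps4 (0.956). What lies behind these likenesses was not tested.

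HIF-1 binds the hypoxia response element, whose core is ACGTG or GCGTG. Both were searched on either strand of the 250 bases before each RefSeq start (GRCm38.p6), in 10 windows available for 6 of the 10 genes. The windows of Efemp1, Efemp2 and Fbln5 that held a core are shown, since Efemp1 and Efemp2 were lower and Fbln5 higher in HIF1a-ko than in R26 hypoxia. Each reads 5′ to 3′ on the gene's strand, with every core in capitals, written CACGC where GCGTG lies on the other strand.
Efemp1, chr11:28852955-28853204, plus strand: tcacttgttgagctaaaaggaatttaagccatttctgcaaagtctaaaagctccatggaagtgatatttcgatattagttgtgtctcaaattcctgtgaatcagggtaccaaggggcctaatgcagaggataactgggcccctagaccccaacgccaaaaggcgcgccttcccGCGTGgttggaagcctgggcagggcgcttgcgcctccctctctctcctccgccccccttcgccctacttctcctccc
Efemp2, chr19:5473696-5473945, plus strand: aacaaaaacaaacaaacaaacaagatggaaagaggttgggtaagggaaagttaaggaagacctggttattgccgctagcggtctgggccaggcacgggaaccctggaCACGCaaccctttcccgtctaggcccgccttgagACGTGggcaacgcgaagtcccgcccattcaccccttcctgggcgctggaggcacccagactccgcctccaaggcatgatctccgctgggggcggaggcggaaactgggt
Fbln5, chr12:101819120-101819369, minus strand: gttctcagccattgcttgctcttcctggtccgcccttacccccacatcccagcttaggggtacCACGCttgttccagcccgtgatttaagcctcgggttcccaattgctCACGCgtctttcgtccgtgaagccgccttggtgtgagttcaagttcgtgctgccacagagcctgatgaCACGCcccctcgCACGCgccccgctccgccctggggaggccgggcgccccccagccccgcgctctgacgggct
The Efemp1 window held GCGTG 77 bases before the start. That of Efemp2 held ACGTG 109 bases before the start and GCGTG on the other strand at 143, and the 2 windows of its other starts held neither core. Fbln5 held GCGTG on the other strand 4 times, at 187, 141, 73 and 61 bases, and its other window held neither. Both overlapping Fbln1 windows held ACGTG, at 80 bases before the first start within the palindrome CACGTG, which reads as the core on both strands. The windows of Fbn1 and Fbln2 held neither core. Of 32851 such mouse windows, 16.6% held ACGTG, 28.2% GCGTG and 38.6% either. A match describes letters only. Of the genes with one, Efemp1 and Efemp2 fell and Fbln5 rose in HIF1a-ko against R26 hypoxia, and Fbln1 was not called. Those without one were called in this comparison too: Fbn1 fell (log2 -0.86) and Fbln2 rose (0.18).

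The other genes of the pathway were followed in 5 lists. Their counts are to be read beside the shares of all genes called. These were 25.2% in R26 hypoxia against normoxia (12.8% higher, 12.4% lower) and 45.8% in HIF1a-ko against R26 hypoxia (22% higher, 23.8% lower). In HIF1a-ko hypoxia against R26 normoxia the share was 41.4% (19.5% higher, 21.9% lower). The first list holds the 6 cross-linking genes: 5 lysyl oxidases and the copper transporter Atp7a that supplies them. In R26 hypoxia against normoxia 5 rose and 0 fell, with a median log2 fold change of 0.44. Lox, the enzyme that initiates elastin and collagen cross-linking, had 2144.9 ± 204.9 CPM in R26 hypoxia and 1108.5 ± 91.2 CPM in R26 normoxia (SD, n = 3 each), a 1.93-fold rise (0.95 ± 0.08, edgeR, adjusted p = 5.78e-05). In HIF1a-ko against R26 hypoxia all 6 tested fell, with a median of -0.84. Loxl1, the oxidase needed to maintain elastic fibres in adult mice, had 96.5 ± 7.66 CPM in HIF1a-ko and 271.9 ± 25.2 CPM in R26 hypoxia, a 2.82-fold fall (-1.49 ± 0.09, adjusted p = 1.03e-06). Against R26 normoxia, HIF1a-ko hypoxia had 1 gene higher, Loxl4 (81.1 ± 2.41 CPM in HIF1a-ko hypoxia and 64.5 ± 1.02 CPM in R26 normoxia), and 3 lower, led by Loxl1 (2.2-fold, -1.13 ± 0.09), and the median was -0.09.

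Of the fibrillin partners and matrix TGF-beta binding genes, 15 of 17 were tested. The shares of all genes called were 25.2%, 45.8% and 41.4% in the 3 comparisons, in the order followed here. In R26 hypoxia against normoxia 7 rose and 3 fell, with a median of 0.09. The microfibril metalloprotease Adamts6 was the highest called (44.6 ± 1.21 CPM in R26 hypoxia and 32.4 ± 2.59 CPM in R26 normoxia, 0.46 ± 0.06). The fibrillin-binding Adamtsl5 was the lowest called (-0.33 ± 0.06), and without R26 normoxia 1 the number that rose was 4. In HIF1a-ko against R26 hypoxia 3 rose and 8 fell, with a median of -0.29. Mfap2, which encodes MAGP-1, the other microfibril-associated glycoprotein beside Mfap5, had 3.25 ± 0.414 CPM in HIF1a-ko and 17.4 ± 0.837 CPM in R26 hypoxia, a 5.35-fold fall (-2.42 ± 0.10, edgeR, adjusted p = 1.62e-07), while Adamtsl5 was the highest, at 63.2 ± 3.78 CPM in HIF1a-ko and 43.7 ± 2.26 CPM in R26 hypoxia (0.53 ± 0.06). Against R26 normoxia, 3 were higher and 9 lower in HIF1a-ko hypoxia, with a median of -0.35, from Mfap2 (-2.07 ± 0.10) to the fibrillin-1-binding Adamtsl4 (0.64 ± 0.04).

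Of 14 other fibre surface proteins 13 were tested. Over all genes, 25.2%, 45.8% and 41.4% were called in the 3 comparisons, in the order followed here. The number called in HIF1a-ko against R26 hypoxia in the fit of all 9 libraries was near that share. In R26 hypoxia against normoxia 6 rose and 1 fell, with a median of 0.38. Emilin2, a glycoprotein at the interface of elastin and microfibrils, had 602.1 ± 3.78 CPM in R26 hypoxia and 414.3 ± 11.6 CPM in R26 normoxia (0.54 ± 0.05, edgeR, adjusted p = 8.74e-05), and the proteoglycan Dcn fell to 349.0 ± 34.6 CPM in R26 hypoxia, against 733.4 ± 81.8 CPM in R26 normoxia (-1.07 ± 0.11, adjusted p = 0.000159). In HIF1a-ko against R26 hypoxia 1 rose (2 without R26 hypoxia 2, and 3 with depth class as a term or in the shallower libraries) and 5 fell, with a median of -0.12. Emilin2 was the lowest there, 3.31-fold lower at 182.1 ± 9.7 CPM in HIF1a-ko hypoxia against 602.1 ± 3.78 CPM in R26 hypoxia (-1.73 ± 0.05, adjusted p = 5.33e-08), and the hemicentin Hmcn2 was the 1 that rose, at 9.21 ± 0.741 CPM in HIF1a-ko and 5.75 ± 0.447 CPM in R26 hypoxia (0.68 ± 0.10). Against R26 normoxia, 3 were higher and 4 lower in HIF1a-ko hypoxia, with a median of -0.04. Hmcn1 was the lowest called, at 0.846 ± 0.221 CPM in HIF1a-ko hypoxia and 1.96 ± 0.549 CPM in R26 normoxia (-1.21 ± 0.28), and Mfap3l the highest, at 0.658 ± 0.301 CPM in HIF1a-ko hypoxia and 0.125 ± 0.0415 CPM in R26 normoxia (2.41 ± 0.66, adjusted p = 0.0161, but 0.0591 without R26 normoxia 3 and 0.0582 without HIF1a-ko hypoxia 2).

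**Figure D4:**
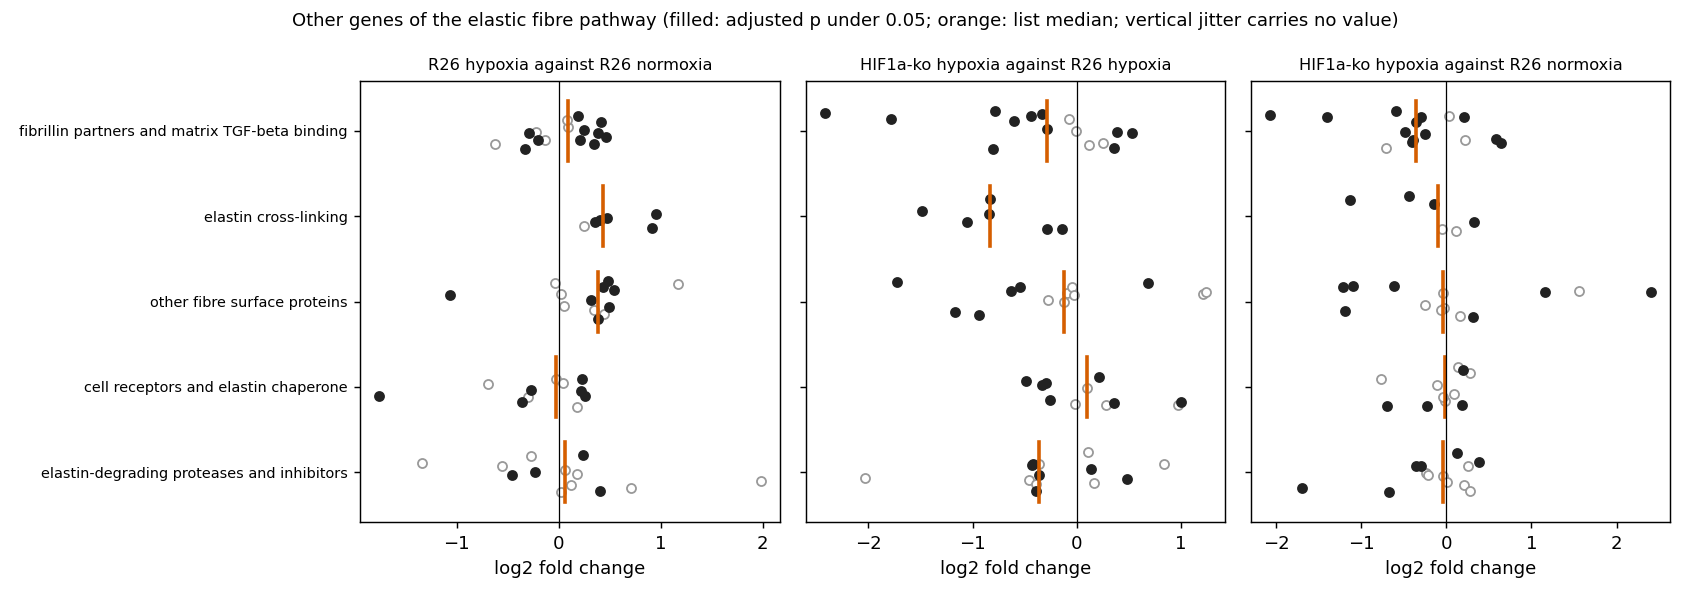
Log2 fold change of each other pathway gene tested, by list and comparison, filled where called, with the median of the list as an orange line. The cross-linking list has its median at 0.44 in R26 hypoxia against normoxia and at -0.84 in HIF1a-ko against R26 hypoxia.

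The cell receptors and the elastin chaperone, all 11 of 11 tested, changed in both directions. Calls over all genes made up 25.2%, 45.8% and 41.4% in the 3 comparisons, in the order followed here. In R26 hypoxia against normoxia 3 rose and 3 fell (median -0.03), from the integrin subunit Itga8, at 0.308 ± 0.142 CPM in R26 hypoxia and 1.05 ± 0.157 CPM in R26 normoxia (-1.76 ± 0.34, edgeR, adjusted p = 0.005), to the integrin subunit Itgav (0.26 ± 0.07). None was called higher without R26 normoxia 1 or 2 (0 of 11), and Itgav also lost its call without R26 hypoxia 2 or 3. In HIF1a-ko against R26 hypoxia 3 rose and 4 fell (median 0.10). Itgav was the lowest called, at 288.0 ± 11.9 CPM in HIF1a-ko and 404.5 ± 25.4 CPM in R26 hypoxia (-0.49 ± 0.07). Itga8 was the highest (1.00 ± 0.34, adjusted p = 0.0378), a call lost without any of R26 normoxia 1 and 2, R26 hypoxia 1 and 3 and HIF1a-ko hypoxia 2 and 3 (0.0505 to 0.112). Its call was also lost with only the 2 groups (edgeR, adjusted p = 0.08), the replicate block (0.0693) or no filter on low counts (0.0629). Against R26 normoxia 2 were higher and 2 lower in HIF1a-ko hypoxia (median -0.02): Ctsa, the protective protein of the elastin receptor complex, had 244.6 ± 11.8 CPM in HIF1a-ko hypoxia and 397.0 ± 14.9 CPM in R26 normoxia (-0.70 ± 0.05), and Glb1, whose splice form is the elastin chaperone, was at 0.20 ± 0.06, not called without R26 normoxia 1 or 2. The number higher was 0 without R26 normoxia 1 or 2 and 1 without HIF1a-ko hypoxia 2, and the number lower was 1 without R26 normoxia 3 or any HIF1a-ko library.

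Of 16 elastin-degrading proteases and their inhibitors 13 were tested. Over all genes, 25.2%, 45.8% and 41.4% were called in the 3 comparisons, in the order followed here. The numbers of this list called in the fit of all 9 libraries, with group as the only term, were near these shares. In R26 hypoxia against normoxia 2 rose and 2 fell (median 0.06), but 6 and 4 with the replicate block and 5 higher in the shallower libraries. The inhibitor Timp2 was the lowest called, at 1193.2 ± 52.9 CPM in R26 hypoxia and 1640.2 ± 148.2 CPM in R26 normoxia (-0.46 ± 0.07, edgeR, adjusted p = 0.00139). Timp1 was the highest called (0.40 ± 0.12, edgeR, adjusted p = 0.0348). It was not called, leaving 1 gene higher, without R26 normoxia 1 or 3, R26 hypoxia 1 or 2, or HIF1a-ko hypoxia 2 or 3 (0.0526 to 0.113). With only the 2 groups in the fit Timp1 was not called either (edgeR, adjusted p = 0.078), and 1 gene was higher. In HIF1a-ko against R26 hypoxia 2 rose and 4 fell (median -0.36), beside 45.8% of all genes called. The counts depended on the setting: 5 rose and 7 fell in the shallower libraries, 4 rose and 6 fell with depth class as a term, 4 rose and 4 fell with library totals only, 1 rose with no filter on low counts or only the 2 groups, and 0 rose with the replicate block. Mmp14, the membrane-bound protease that activates Mmp2, was the lowest called, at 666.8 ± 31.7 CPM in HIF1a-ko and 899.5 ± 14.6 CPM in R26 hypoxia (-0.43 ± 0.05, edgeR, adjusted p = 0.000122). The elastin-cleaving cathepsin Ctsk was the highest called (0.48 ± 0.14, adjusted p = 0.0211). Ctsk was not called without R26 hypoxia 2 (0.0638) or HIF1a-ko hypoxia 2 (0.0806), nor with the replicate block (0.0656). The number that rose there was 0 without R26 hypoxia 2 or HIF1a-ko hypoxia 2, 1 without R26 normoxia 1, R26 hypoxia 3 or HIF1a-ko hypoxia 1, and 4 without R26 normoxia 3. The number that fell was 2 without R26 hypoxia 1 or 2, or HIF1a-ko hypoxia 1 or 3. Against R26 normoxia 2 were higher and 4 lower in HIF1a-ko hypoxia (median -0.04), from Mmp9, at 0.728 ± 0.501 CPM in HIF1a-ko hypoxia and 2.32 ± 0.255 CPM in R26 normoxia (-1.70 ± 0.58, adjusted p = 0.0418), to the cathepsin Ctsl, at 466.5 ± 5.72 CPM in HIF1a-ko hypoxia and 357.5 ± 8.63 CPM in R26 normoxia (0.38 ± 0.05). Mmp9 was not called without any 1 of R26 normoxia 1 to 3, R26 hypoxia 1 and HIF1a-ko hypoxia 1 and 3 (0.0585 to 0.101), nor with the replicate block (0.0556). The number higher was 1 without R26 normoxia 1 or 2, R26 hypoxia 1 or 2, or HIF1a-ko hypoxia 2 or 3.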

How the data were processed

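RNA was measured by poly-A sequencing (NEBNext Ultra libraries, per the labels' protocols) in 9 libraries. The authors deposited raw read counts for each Ensembl gene, as whole numbers. The submitters' processing notes name STAR, featureCounts, Trimmomatic, bcl2fastq 2.17 and DESeq2, with the build GRCm38. Neither the annotation release nor the strand setting is given in the sources used here. Of 49315 identifiers, 49056 were paired with GENCODE M21 symbols. Coordinates, exon lengths and overlaps come from that annotation (GRCm38), and promoter sequences from RefSeq (GRCm38.p6).

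Counts were tested with edgeR 4.0.16 (R 4.3.3, limma 3.58.1) by the two-sided quasi-likelihood test, with TMM scaling, filterByExpr at a minimum count of 10, all 9 libraries in 1 fit, group as the only term, and Benjamini-Hochberg adjustment over 18211 genes. A gene was called where its adjusted p was under 0.05. Intervals of 95% come from the fit, and DESeq2 1.42.0 was an alternative. The procedure was also run on simulated counts. These held no difference between deeper and shallower libraries, so that run cannot speak for genes split by depth. Log2 CPM for correlations used a prior count of 2. Between libraries of a group, chi-square over genes divided by its degrees of freedom was 6.18 to 63, more than counting error alone gives. This cannot show that the libraries come from separate cultures. All 9 libraries were kept as samples. Counting error limits Mfap4 most, at 5 to 27 counts.

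The replicate numbers in the titles entered only the alternative fits with a replicate block. Deviations from the group means correlated at 0.48, 0.53 and 0.85 for numbers 1, 2 and 3 of R26 hypoxia and R26 normoxia, all above the limit of 0.1 used here. R26 hypoxia 1 with normoxia 2 (0.59) and R26 hypoxia 2 with normoxia 1 (0.50) correlated as closely, so only number 3, the deeper library of both groups, is set apart, and numbers 1 and 2 are not shown to be pairs. The numbers do not pair HIF1a-ko with R26 libraries. The 10 genes, the lists and the markers were chosen with earlier results of these data known. Named beside the 10 genes and Hif1a were, per list and comparison, the called genes with the highest and lowest log2 fold change, and the 3 genes most like each of the 4 members with the highest level per length, of which 1 is not reported here. The genes named as most like Eln, Mfap4 and Fbln1, as well as Atp7a, Mmp2, the marker genes and the untested list genes, lie outside this rule. The list genes Adamtsl2, Adamts17, Vtn, Mmp7, Elane and Serpina1a did not pass the filter. Alternatives changed the scaling, the filter, the libraries in the fit, the replicate block, the depth class and the test, and left out each library in turn.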

Additional observations from a re-analysis of the deposited data

How the results depend on the processing

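Over 17 alternatives, the calls of Fbn1, Mfap5, Efemp1, Efemp2 and Fbln5 in HIF1a-ko against R26 hypoxia, of Fbn1, Fbln2, Efemp1 and Fbln5 in HIF1a-ko hypoxia against R26 normoxia, and of Mfap5 and Fbln2 in R26 hypoxia against normoxia kept their direction and their side of the threshold. The number of all genes called in R26 hypoxia against normoxia was 4591, and 6959 with depth class as a term. With the replicate block it was 7259, where the pairing sets the deeper libraries apart but does not separate numbers 1 and 2. In HIF1a-ko against R26 hypoxia the members called higher were 1 in place of 2 with no filter on low counts and 1 with a block on replicate number, where the pairing was not borne out (same-number correlations of -0.66, 0.57 and -0.65); Fbn2 and Fbln2 were then not called. Members higher in HIF1a-ko hypoxia against R26 normoxia were 4 in the 6 shallower libraries. Leaving out each library in turn, the members called ran from 2 to 5 higher in R26 hypoxia against normoxia, and from 1 to 2 higher in HIF1a-ko against R26 hypoxia. The causes were not tested.

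Values that changed sign were uncalled in every case. In R26 hypoxia against normoxia, Efemp1 was at 0.00 with no filter and with the replicate block, at 0.01 with only the 2 groups and in the shallower libraries, and between -0.05 and 0.01 without single libraries, and Mfap4 was at 0.09 in the shallower libraries. Fbn2 in HIF1a-ko hypoxia against R26 normoxia was at 0.03 there, and between -0.09 and 0.05 without single libraries. Leaving out single libraries moved Mfap4 between -0.76 and 0.48, Eln between -0.20 and 0.77 and Fbln1 between -0.39 and 0.58 in R26 hypoxia against normoxia, Eln between -0.40 and 0.68 and Mfap4 between -1.11 and 0.13 in HIF1a-ko against R26 hypoxia, and Eln between -0.08 and 0.93 and Mfap5 between -0.16 and 0.03 in HIF1a-ko hypoxia against R26 normoxia. The low counts of Eln, Fbln1 and Mfap4 and their depth split limit what can be said of them.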
